A study of Rattus norvegicus with 8 samples.

Results

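Cytosolic ribosomal protein genes were followed across 4 drinking-water groups of rat intestinal epithelium. A gene belonged to the set if a probe set of the array carried a single symbol made of Rpl or Rps and a number, or Rplp0 to Rplp2 or Rpsa; S6 kinases and pseudogene names were left out. The rule found 48 genes among the 14217 genes of the array, of which 33 encode proteins of the large and 15 of the small ribosomal subunit. The brightest of a gene's probe sets stood for it, and 43 of the 48 passed the filter on low signals (29 large and 14 small subunit genes). The members left untested for low signal were Rpl28, Rpl30, Rpl39l1, Rpl3l and Rps13. For Rpl28, Rpl30 and Rps13 the low signal is that of the single-symbol probe set only. Probe sets that name them beside other symbols read 863 to 1127 (Rpl28) and 622 to 968 (Rps13) over the arrays. For Rpl30 1 such probe set read 965 to 1827, and 1 that also names Rps10 read 578 to 782.

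Transcripts were measured on Affymetrix Rat Genome 230 2.0 arrays, 2 arrays a group and 8 in all, in Wistar rats labelled as 4 months of age. The TW group drank tap water for 3 days, the DSW1200 group drank deep sea water of hardness 1200 for 3 days, the SeW group drank water with selenium for 3 days, and the WR group went without water for 12 h. The rats were female, and no genetic modification was named. The cells were loosened from proximal small intestine with EDTA, a preparation that can also carry crypt, immune and stromal cells. No source states whether the 2 arrays of a group came from separate animals, so the p-values measure only the spread between these arrays, and 2 arrays a group limit the precision of every value below. All 16 enterocyte markers listed for the check passed the filter, with a summed signal of 43779 to 54786 over the arrays, and so did 11 of 14 crypt and proliferation markers, all but Lgr5, Ascl2 and Cdk1.

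Ribosomal proteins coat the ribosomal RNA of the 2 ribosomal subunits, and cells make them in near-equal amounts. Most of their mRNAs begin with a terminal oligopyrimidine (TOP) tract, a C followed by a run of C and T, through which mTORC1 signalling and the protein LARP1 set how much of the mRNA is translated. Translation of these mRNAs is high in the dividing cells of intestinal crypts, and an array reads the amount of mRNA only.

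The starts of some of the members named below are shown first, since the tract lies there. Each line gives 20 bases before and 20 after the start annotated by RefSeq on GRCr8, on the gene's strand, with the longest unbroken run of C and T in capitals.
Rpsa, chr8:128728859-128728898, plus strand: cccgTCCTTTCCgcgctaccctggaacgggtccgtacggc
Rpl13a, chr1:104748894-104748933, minus strand: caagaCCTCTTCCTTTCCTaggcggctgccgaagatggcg
Rpl21, chr12:13386134-13386173, minus strand: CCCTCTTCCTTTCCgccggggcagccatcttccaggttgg
Rpl24, chr11:58128386-58128425, minus strand: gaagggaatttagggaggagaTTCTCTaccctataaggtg
Rpl3, chr7:113507971-113508010, minus strand: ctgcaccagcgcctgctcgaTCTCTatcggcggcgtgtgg
Rpl41, chr7:1563478-1563517, minus strand: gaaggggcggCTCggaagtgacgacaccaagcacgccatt
Rps23, chr2:23814497-23814536, plus strand: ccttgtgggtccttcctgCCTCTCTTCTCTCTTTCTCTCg
Rps3a, chr2:173827023-173827062, minus strand: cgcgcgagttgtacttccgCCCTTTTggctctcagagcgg

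Of the 48 members, 41 had an entry in the RefSeq promoter table. A run of at least 8 C or T bases lay in the 40-base window of 26 of these 41 (63.4%), against 15.5% of all 27457 promoters in the table and 11 of 59 (18.6%) for mitochondrial ribosomal protein genes. A C exactly at the annotated start followed by at least 4 C or T bases was found in 11 of 41 members (26.8%), 2.63% of all promoters and 2 of 59 mitochondrial ribosomal protein genes (3.39%). Only the gene's own strand was searched, and a match describes the letters of the window and not a used start. Rpsa, Rpl21 and Rpl13a had their longest run upstream of the annotated start, and Rpl24, Rpl3 and Rpl41 had none of 8 bases in the window.

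The members moved together from array to array, also between arrays of the same group. Their median normalized signal was 997 and 924 on the TW arrays, 979 and 1211 on the WR arrays, 933 and 891 on the DSW1200 arrays, and 1032 and 877 on the SeW arrays. The second WR array was the highest of the 8 for 28 of the 43 members. Within WR, 41 of 43 members were higher on array 2, by a median of 0.25 on the log2 scale. Within SeW, 40 of 43 were higher on array 1, by a median of 0.26. Array 1 was also the higher for 33 members in TW (median 0.17) and for 31 in DSW1200 (median 0.11). The spread within a group was thus as large as the shift between groups described next. The 480 other genes with a geometric mean signal over 712 did not share it, with median differences between arrays of a group from -0.054 to 0.011. The 16 other TOP mRNA genes (elongation and initiation factors among them) differed in the same direction as the members in every group, by medians of 0.04, -0.15, 0.086 and 0.18 (array 1 minus array 2) in TW, WR, DSW1200 and SeW. In every group the array with the higher members was also the one with the higher 3′ to 5′ signal ratio of the beta-actin control probes, 1 of 2 such measures of RNA integrity and labelling. The ratios were 24.1 and 20.6 in TW, 21.1 and 24.8 under WR, 32.8 and 27.1 with DSW1200, and 13.6 and 10.9 with SeW. With this ratio as a covariate the members' median changes against TW were 0.22 in WR, -0.33 in DSW1200 and 0.68 in SeW. Without it they were 0.25, 0.017 and 0.022. In SeW against TW no gene was called with the covariate, beside 177 without it. The SeW ratios lay below those of all other arrays, so this fit could hardly separate SeW from the ratio. The array with the higher members also had the higher summed signal of crypt and proliferation markers in all 4 groups (sums given below). A cause was not tested. The same ratio of the Gapdh control probes ran with the members in WR (2.35 and 2.73) and DSW1200 (3.86 and 3.00), but the other way in TW (2.66 and 3.08) and SeW (1.796 and 1.821). On both controls the SeW arrays had the lowest ratios of the 8. The DSW1200 arrays had the highest beta-actin ratios of the 8, without overlap with TW or WR. Their Gapdh ratios lay above both WR arrays but overlapped with those of TW. RNA integrity and labelling therefore cannot be told apart from the water in the comparisons with SeW or DSW1200.

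**Figure D1:**
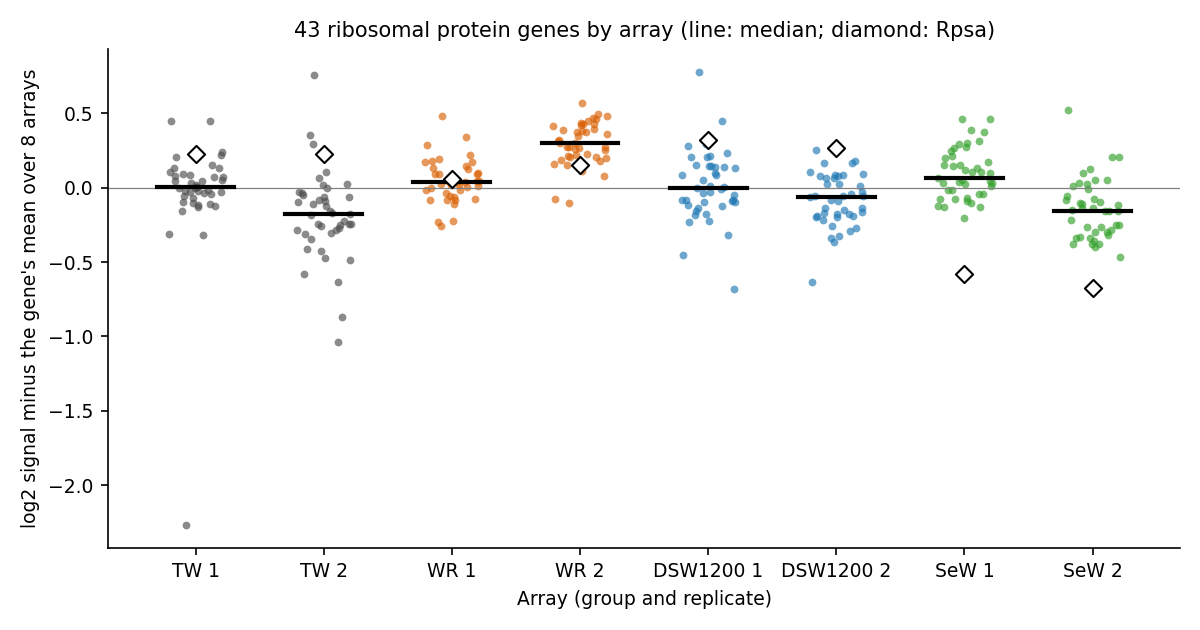
Log2 normalized signal of each of the 43 tested ribosomal protein genes minus that gene's mean over the 8 arrays, one column per array; the line is the median and the diamond is Rpsa. The second WR array had the highest median (0.30), and Rpsa lay below the other members on both SeW arrays.

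Water restriction was compared with tap water to ask how the epithelium responds when water is withheld. Of the 43 members, 38 were higher in WR and 5 lower, with a median log2 change of 0.25, against a median of -0.011 over all 9258 genes tested. No member passed an adjusted p of 0.05 by limma with Benjamini-Hochberg adjustment, where 0.0108% of genes did. With an unadjusted p under 0.05 there were 10 members, all higher, beside 9.7% of genes in either direction. Both WR arrays lay above both TW arrays for 18 of 43 members (41.9%), beside 18.4% of all genes, and 1 member reached 2-fold, beside 4.8%. The median shift depended on single arrays: it was 0.095 without the second WR array, 0.42 without the first, 0.36 without the first TW array and 0.16 without the second. With median centring in place of quantile normalization the shift came to 0.055; all genes had a median of -0.12 there, which the members exceeded by 0.17. Without the first TW array 3 of 44 members passed the threshold, Rpl21 and Rpl24 among them, beside 2.34% of all genes. The large and the small subunit genes had like medians, 0.24 with 27 of 29 higher and 0.26 with 11 of 14 higher.

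Rpl21, a large subunit protein, read 833 and 434 in TW and 924 and 1122 in WR. The 2 groups did not overlap, but the TW arrays lay far apart, and the log2 change was 0.76 ± 0.26 (SE, n = 2 arrays a group; limma adjusted p = 0.465). Rpl24, a protein at the subunit interface, read 619 and 432 in TW and 742 and 882 in WR. Its change was 0.64 ± 0.19 (limma adjusted p = 0.443). Rpl39, a small protein lining the exit tunnel, read 67.5 and 24.2 in TW and 62.8 and 66.9 in WR, so the groups overlapped. The largest change, 1.10 ± 0.82, belonged to the dim paralog Rpl26l1, at 2.175 and 17.7 in TW and 14.6 and 12.1 in WR. It rested on the first TW array, and without that array the change was -0.42. At the other end, Rpl18 read 813 and 1009 in TW and 690 and 767 in WR, a change of -0.32 ± 0.18 (limma adjusted p = 0.573). Rpl37a (-0.14), Rpsa (-0.12) and Rps4y2 (-0.11) were the other members of lowest change, each within its standard error.

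**Figure D2:**
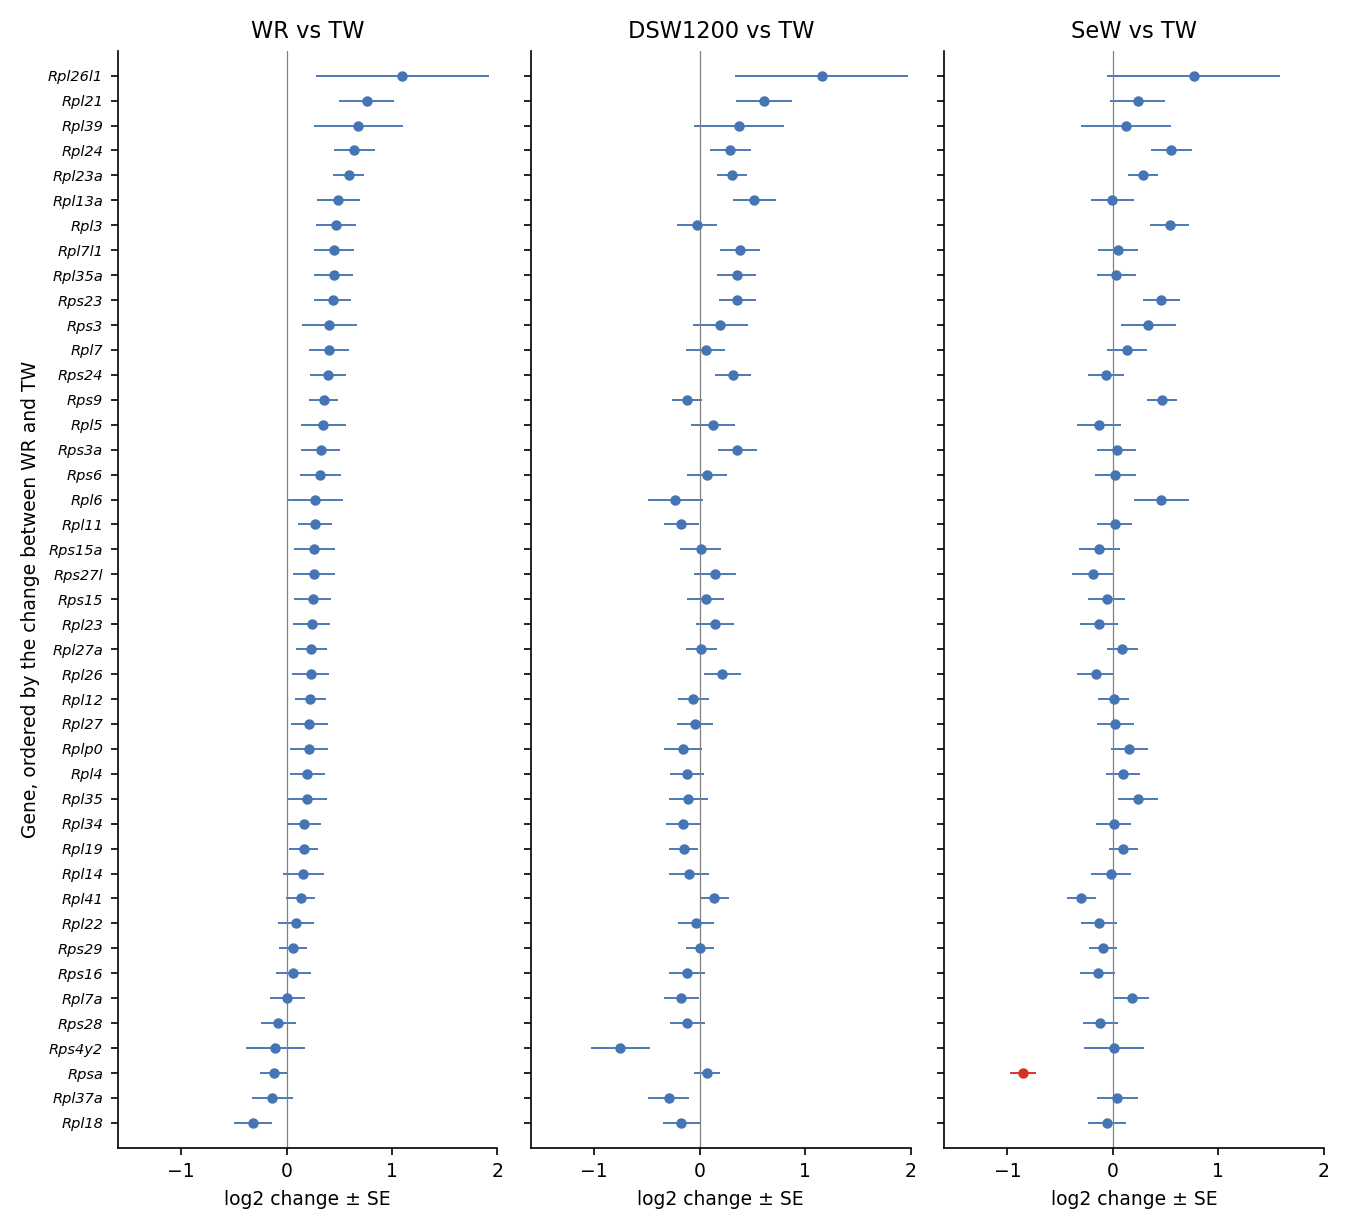
Log2 change with its standard error of the 43 tested members in WR, DSW1200 and SeW against TW (2 arrays a group), ordered by the change in WR; red marks an adjusted p under 0.05. In WR 38 of 43 points lie right of 0, and the single red point is Rpsa in SeW.

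Deep sea water was compared with tap water to ask what its minerals do to the epithelium. The members split almost evenly, 24 higher and 19 lower in DSW1200, with a median log2 change of 0.017 against -0.021 over all genes. No member passed the adjusted threshold, and neither did any gene (0% of those tested); 3 members and 7.92% of all genes had an unadjusted p under 0.05. Without the first TW array 2 of 44 members passed, Rpl13a and Rpl21, beside 1.35% of all genes. Both DSW1200 arrays lay above both TW arrays for 13 members (30.2%), beside 16.6% of all genes, and 1 member against 4.26% of genes reached 2-fold. They lay below both TW arrays for 8 members, a side on which the share of all genes was not counted. Rpl13a, which also acts in the translational silencing of inflammatory mRNAs, read 1699 and 1074 in TW and 1951 and 1921 in DSW1200, a change of 0.52 ± 0.20 (limma adjusted p = 0.617). Rpl21 read 933 and 901 in DSW1200, a change of 0.61 ± 0.26 at the same adjusted p. Rpl7l1, a paralog of Rpl7 that acts in subunit assembly, read 101 and 85.0 in TW and 120 and 121 in DSW1200 (0.38 ± 0.19). For both Rpl13a and Rpl21 the second TW array was the lowest of the 8. The lowest change was that of Rps4y2, a paralog of the small subunit gene Rps4x, at 57.0 and 41.0 in TW and 30.5 and 26.9 in DSW1200 (-0.75 ± 0.28; limma adjusted p = 0.617). Rpl37a (-0.30), Rpl6 (-0.23) and Rpl11 (-0.17), of which Rpl11 binds Mdm2 with Rpl5, followed. Rpl26l1 again had the largest change (1.16 ± 0.82), which was -0.36 without the first TW array.

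Selenium water was compared with tap water. The selenium water of the paper was sodium selenite in distilled water, with far more selenium than its deep sea water. The comparison thus does not isolate the part of selenium in deep sea water. Here 1 member fell past the threshold, Rpsa, beside 1.91% of all genes called in either direction. As a group the members kept close to TW: 27 were higher and 16 lower, with a median log2 change of 0.022 against -0.042 over all genes. Their median absolute change was 0.13, against 0.32 over all genes, although the members' median standard error was also the smaller (0.18 against 0.26). An unadjusted p under 0.05 was found for 5 members (11.6%), beside 19.6% of all genes. Both SeW arrays exceeded both TW arrays for 5 members, beside 22.1% of genes, and no member reached 2-fold, beside 6.8%. Without the first TW array 2 of 44 members passed, Rpsa and Rpl24, beside 5.6% of all genes. Without the first or the second SeW array no member passed, and of all genes 2 and 1 did.

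Rpsa encodes a protein of the small subunit that also serves as a laminin receptor. Its signal was 1801 on both TW arrays, 1602 and 1710 under WR, 1928 and 1854 with DSW1200, and 1032 and 965 with SeW. The SeW arrays were the lowest 2 of the 8 and overlapped with no other group. The log2 change in SeW was -0.85 ± 0.12 against TW (limma adjusted p = 0.0163), -0.92 ± 0.12 against DSW1200 (limma adjusted p = 0.0123) and -0.73 ± 0.12 against WR (limma adjusted p = 0.0421). Rpsa was also the 1 member past the F test over the 4 groups (limma adjusted p = 0.0325; 0.616% of all genes passed), while at an unadjusted F p under 0.05 there were 7 members beside 17.6% of genes.

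The array holds 3 single-symbol probe sets for Rpsa, and they differed. The values above are those of the brightest, whose _s_at suffix marks probes shared by several transcripts. The second, a plain _at probe set, read 965 and 1028 in TW, 878 and 854 under WR, 680 and 807 with DSW1200, and 862 and 842 with SeW. On this probe set SeW lay above DSW1200 (log2 change 0.20) and below TW (-0.23), and neither passed the threshold. The third, an _x_at probe set, read 536 and 291 in TW, 431 and 436 under WR, 437 and 467 with DSW1200, and 324 and 327 with SeW. Its change in SeW was -0.28 against TW, with overlapping arrays. Against WR (-0.41) and DSW1200 (-0.47) the SeW arrays lay lower without overlap, and none of these changes passed the threshold. With the mean of the 3 probe sets the change against TW was -0.45 (limma adjusted p = 0.144), and the call for SeW against TW was also lost with median centring in place of quantile normalization (adjusted p = 0.212), with no filter on low signals (adjusted p = 0.0792), and without the first (adjusted p = 0.0956) or second SeW array (adjusted p = 0.169).

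**Figure D3:**
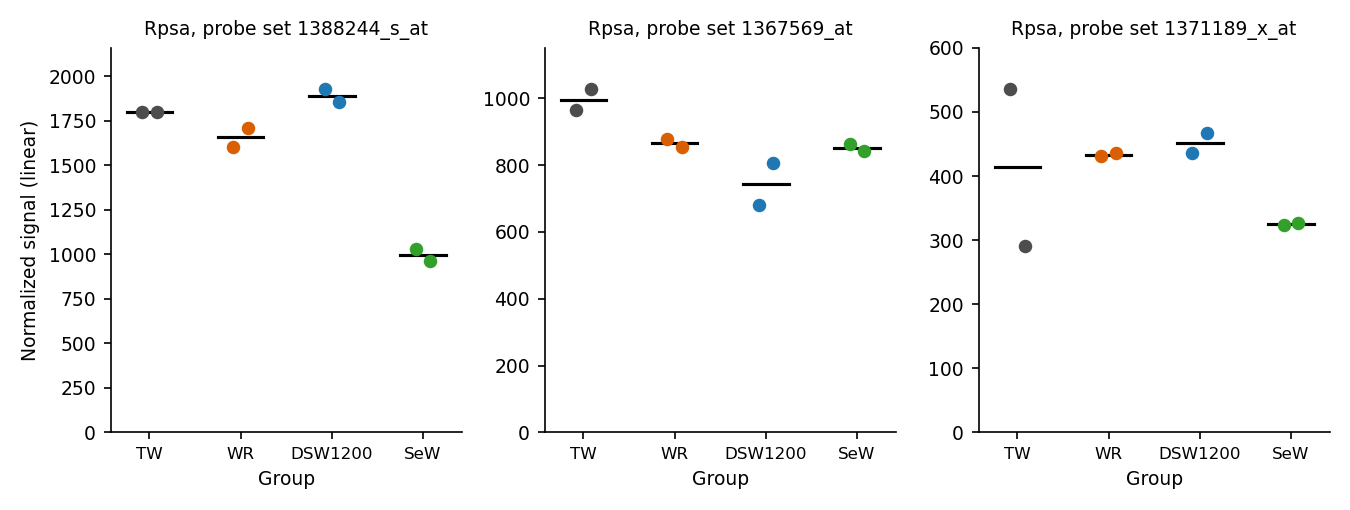
Normalized signal (linear, from 0) of the 3 Rpsa probe sets on each array by group, with the mean of the 2 arrays as a line. The fall in SeW to 1032 and 965 was measured on the first probe set, while on the second the SeW arrays lay above the DSW1200 arrays.

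Other members stood higher in SeW without passing. Rps9, a small subunit protein bound early in assembly, read 560 and 521 in TW, 490 and 504 in DSW1200, 688 and 690 in WR, and 788 and 705 in SeW. The SeW arrays were the highest 2 for this gene, and its change was 0.47 ± 0.14 against TW (limma adjusted p = 0.114) and 0.58 ± 0.14 against DSW1200 (limma adjusted p = 0.0587). Rpl3, which helps to form the peptidyl transferase centre, read 797 and 623 in TW, 740 and 647 in DSW1200, and 1150 and 911 in SeW, and changed by 0.54 ± 0.19 against TW (limma adjusted p = 0.161). A second, dimmer Rpl3 probe set gave 0.34 against TW, but went the other way from the first against DSW1200 (-0.60 beside 0.56). Rpl24 read 833 and 693 in SeW (0.55 ± 0.19; limma adjusted p = 0.163), and Rpl26l1 had again a wide error (0.77 ± 0.82). On the low side Rpl41, the shortest ribosomal protein, read 2359 and 2397 in TW and 2053 and 1819 in SeW (-0.30 ± 0.14; limma adjusted p = 0.266), followed by Rps27l (-0.19) and Rpl26 (-0.16).

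Selenium water was also set against deep sea water. The members were divided, 21 higher and 22 lower in SeW with a median log2 change of -0.0023, and 1 passed (Rpsa), beside 2.72% of genes. With an unadjusted p under 0.05 there were 7 members beside 20% of genes, 4 of them higher and 3 lower in SeW. Both SeW arrays lay below both DSW1200 arrays for 11 members (25.6%), beside 29.5% of genes, and none reached 2-fold, beside 6.2%. They lay above both DSW1200 arrays for 12 members, a side on which the share of all genes was not counted. The higher members were Rps4y2 (0.77), Rpl6 (0.69), Rps9 and Rpl3 (0.56), and the lower ones after Rpsa were Rpl13a (-0.52) and Rpl41 (-0.44), with Rpl26l1 (-0.39) inside its error. Rpl6 read 459 and 720 in DSW1200 and 1012 and 849 in SeW, so the DSW1200 arrays spread more than the gap between the groups. Rps9 passed as well without the first or the second TW array, where 4.7% and 4.61% of all genes passed. Of the small subunit genes 4 of 14 were higher in SeW, against 17 of 29 of the large subunit, a difference that was not tested.

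The 2 comparisons with WR share its arrays with the first comparison, so they carry the same high second WR array. In SeW against WR 34 members were lower and 9 higher (median -0.22), and in DSW1200 against WR 37 were lower and 6 higher (median -0.21); without the second WR array the medians were -0.065 and -0.032. In SeW against WR 1 member passed (Rpsa), beside 1.23% of genes, and its call was lost without either WR array, without either SeW array and without the second DSW1200 array. At an unadjusted p under 0.05 there were 7 members in SeW against WR, all lower, beside 16.5% of genes in either direction. In DSW1200 against WR 0 members and 0% of genes passed, with 5 members under an unadjusted p of 0.05 beside 5.84% of genes. Both arrays of the group lay below both WR arrays for 18 members in SeW (30% of genes) and for 17 in DSW1200 (18% of genes). No member reached 2-fold in either, beside 5.07% and 3.31% of genes. After Rpsa the lowest members in SeW against WR were Rpl39 (-0.56), Rpl21 (-0.52) and Rpl13a (-0.50), and the highest were Rpl18 (0.26), Rpl6 (0.19), Rpl37a (0.18) and Rpl7a (0.17). In DSW1200 against WR the lowest were Rps4y2 (-0.65), Rpl6 (-0.50), Rpl3 (-0.49, and 0.79 on its second probe set) and Rps9 (-0.47), and the highest were Rpsa (0.19), Rpl18 (0.14), Rpl26l1 (0.059) and Rps3a (0.034).

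Members with roles beyond the ribosome did not pass in any comparison, Rpsa excepted. Rpl5 and Rpl11, which restrain Mdm2 when ribosome assembly fails, read 1500 and 1204 (Rpl5) and 968 and 922 (Rpl11) in TW, and 1472 and 1994 (Rpl5) and 996 and 1303 (Rpl11) in WR. For both genes the second WR array was the highest of the 8. Rps6, the substrate of S6 kinase, read 1244 and 1133 in TW, 1259 and 1742 under WR, 1352 and 1147 with DSW1200, and 1372 and 1060 with SeW. Rps3, which also takes part in DNA repair, read 593 and 426 in TW and 505 and 877 in WR. Rplp0, the base of the stalk that recruits elongation factors, read 1007 and 705 in TW, 960 and 994 under WR, 745 and 767 with DSW1200, and 1004 and 880 with SeW, with the DSW1200 arrays below both WR and both SeW arrays. Rps23, at the decoding centre, read 1380 and 1391 in TW and lay higher on every other array, from 1612 to 2255. Among paralogs, Rps27l, a p53 target, ranged from 73.8 to 125 over the arrays, and Rpl22 from 994 to 1469. Rpl3l and Rpl39l1 were among the untested members, with signals of at most 5.9875 and 16.5.

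A further 36 probe sets named a ribosomal protein gene beside other symbols and were not counted as members, since their signal cannot be assigned to 1 gene. Of the 35 over the filter, 33 were higher in WR than in TW (median log2 change 0.22), 22 in DSW1200 and 23 in SeW, and over the 6 comparisons 1 passed the threshold, a probe set of Rpl8 and a copy that was higher in SeW than in DSW1200 (limma adjusted p = 0.0263), beside 2.98% of all probe sets in that comparison.

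Genes around the ribosome gave the members' changes a scale. The 73 mitochondrial ribosomal protein genes had median changes of -0.068, -0.041 and -0.15 in WR, DSW1200 and SeW against TW, and the 36 proteasome subunit genes -0.13, -0.072 and -0.16. None of either list passed. At an unadjusted p under 0.05 in SeW there were 11 mitochondrial ribosomal protein genes lower and 2 higher, and 5 proteasome genes lower, beside 19.6% of all genes in either direction. The 16 other TOP mRNA genes had medians of 0.081, -0.09 and 0.019, and none passed. Eef2, which moves the ribosome along the mRNA, read 448 and 577 in TW and 685 and 642 in SeW (limma adjusted p = 0.237). Of 76 ribosome biogenesis factors, 54 were higher in WR (median 0.18) and none passed there, with 9 higher and 1 lower at an unadjusted p under 0.05, beside 9.7% of all genes. In SeW against TW 43 of the 76 were lower (median -0.12) and 1 fell past the threshold, beside 1.91% of all genes called in either direction. It was the small subunit assembly kinase Riok1, which read 80.4 and 98.3 in TW and 39.9 and 35.7 in SeW (-1.24 ± 0.20, limma adjusted p = 0.0243). Of 11 RNA polymerase I genes, 8 were lower in SeW (median -0.40) and 2 fell past the threshold, beside the same 1.91% of all genes. They were the rDNA transcription factors Ubtf (-0.94, limma adjusted p = 0.0379) and Taf1c (-1.74, limma adjusted p = 0.0435). Eif2b4, a subunit of the exchange factor of eIF2, fell in SeW by 1.19 (limma adjusted p = 0.0286), 1 of 32 initiation factors. Sesn2, an inhibitor of mTORC1, fell by 1.06 (limma adjusted p = 0.0286), 1 of 26 genes of mTORC1 and ribosomal gene control. The counts for initiation factors and for mTORC1 genes also stand beside 1.91% of all genes. These 5 calls were all lost without either SeW array, and over the alternatives they held in 8 of 19 (Riok1 and Eif2b4), 7 of 19 (Sesn2), 6 of 19 (Ubtf) and 2 of 18 (Taf1c). Larp1 read 359 and 470 in TW and 259 and 238 in SeW (limma adjusted p = 0.0861).

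**Figure D4:**
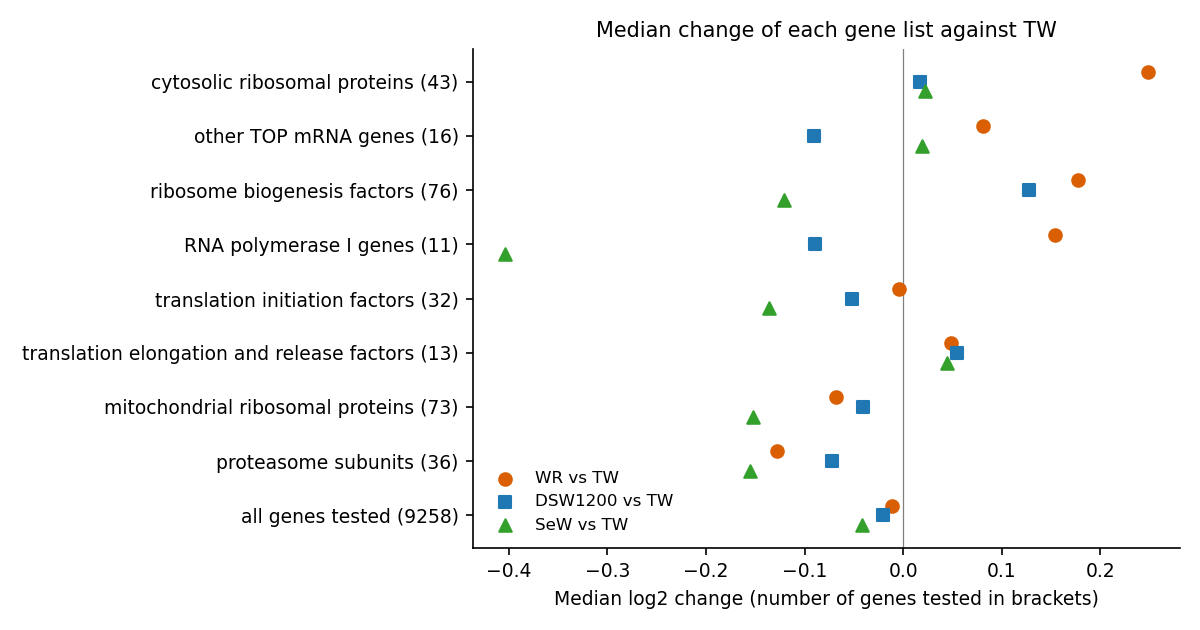
Median log2 change of each gene list against TW in WR, DSW1200 and SeW, with the number of genes tested in brackets. The ribosomal protein genes had a median of 0.25 in WR and lay near 0 in DSW1200 and SeW, and the RNA polymerase I genes had a median of -0.40 in SeW.

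Markers of other cells also differed between the groups. Against TW no listed marker but the Paneth cell gene Defa24 passed the threshold, beside 0.0108% (WR), 0% (DSW1200) and 1.91% (SeW) of all genes. Of 11 tested crypt and proliferation markers, 10 were higher in WR (median log2 change 0.90), 9 in DSW1200 (0.56) and 10 in SeW (0.89). Sums in this paragraph run over all markers of a list on the array, those below the filter included. The sum over the 14 crypt and proliferation markers was 653 and 473 in TW, 612 and 782 under WR, 416 and 394 with DSW1200, and 803 and 608 with SeW. With DSW1200 the sums lay below both TW arrays, although 9 of the 11 tested markers were higher. The WR and SeW sums overlapped with those of TW. Fibroblast and smooth muscle markers were higher for 12 of 13 in WR, with sums of 803 and 568 in TW and 938 and 884 in WR, and Cnn1 was below the filter. The sum over 12 pancreatic acinar markers, of which 5 were tested, was 652 on the second WR array and 58.0 to 207 on the other arrays, with 7 defining markers, Prss2 and Cpa1 among them, below the filter. Of 15 tested myeloid markers, 12 were higher in WR and 12 lower in SeW, with sums of 5219 and 4749 in TW, 6001 and 5111 in WR and 4875 and 4717 in SeW, and Cd14 and Itgam were below the filter. Enterocyte markers were higher for 15 of 16 in SeW. The Paneth cell defensin Defa24 was the 1 gene of the array to pass in WR against TW (limma adjusted p = 0.00934), and it also rose in SeW (limma adjusted p = 0.0166); it read 31.0 and 51.6 in TW, 367 and 502 in WR and 225 and 137 in SeW, while 5 of 8 Paneth markers were below the filter. T lymphocyte markers were higher for 9 of 11 in WR and lower for 9 of 11 in SeW, with sums of 555 and 463 in TW and 375 and 366 in SeW, and Cd3e and Cd8a were below the filter. Their part in the ribosomal protein values was not tested. In bulk RNA, fewer cells of a type and less RNA per cell cannot be told apart.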

How the data were processed

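The deposited values are linear signal intensities that the authors obtained with MAS5 from Affymetrix Rat Genome 230 2.0 arrays, 8 arrays in 4 groups of 2; array data carry no read depth. The members and gene lists were chosen with earlier results of these data known. The 31099 probe sets were quantile normalized over the 8 arrays, as the methods name this step, with a lower limit of 1 on the signal before the log2 step. Probe sets were named through the platform annotation updated by gene identifier; 20826 carried 1 symbol and 436 several, and the remainder were not named here. The brightest single-symbol probe set stood for each of 14217 genes, and 9258 with a geometric mean signal over 6.687 were tested.

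A group model over all 8 arrays (4 residual degrees of freedom) was fitted with limma 3.58.1 in R 4.3.3 with an intensity trend, checked on simulated data, with 6 pairwise contrasts, an F test and Benjamini-Hochberg adjustment; a call is an adjusted p under 0.05, and errors are standard errors of log2 changes. Both arrays of one group above or below both of another has an exact permutation p of at least 0.333 (two-sided), so single genes were not permuted. The 2-fold criterion of the methods was an alternative. Named members were those past the threshold, the 4 highest and 4 lowest changes in each contrast, paralogs, stalk proteins, members with other known roles, and dim members. Promoter windows came from RefSeq on GRCr8. The methods give restriction times other than the labels for parts of the study, and the labels were followed.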

Additional observations from a re-analysis of the deposited data

How the results depend on the processing

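With 2 arrays a group, which limits every call, the 0 to 1 members called in each comparison depended on the processing, and the cause was not tested. The Rpsa calls in the 3 comparisons with SeW and in the F test all became 0 with the mean of probe sets, median centring, no filter, no intensity trend, plain _at probe sets only and the beta-actin ratio as covariate. Calls over all genes fell as well in most of these: in SeW against TW from 177 to 64, 65, 12, 1, 165 and 0 in that order. The fit with the beta-actin covariate could hardly separate SeW from the ratio, which was lowest on the SeW arrays. With a replicate block the counts were 0 for SeW against WR and for the F test and 1 for SeW against TW and against DSW1200; it changed no other call, and the replicate numbers did not pair the arrays (correlations of deviations from -0.0647 to 0.0398). With only the 4 arrays compared, SeW against TW gave 0; with the stricter filter SeW against DSW1200 gave 2. The 2-fold criterion gave 1 for WR and for DSW1200 against TW and 0 for the 3 SeW comparisons. Values as deposited gave 29 (F test), 28 (SeW against DSW1200), 38 (SeW against TW) and 4 (SeW against WR), where 29.9%, 40.4%, 47.5% and 10.5% of all genes were called, and the median of all genes moved too, to 0.92 in SeW and 0.38 in WR against TW. Leaving out 1 array gave 0 to 3 (F test; WR against TW), 0 to 2 (DSW1200 against TW; SeW against TW; SeW against DSW1200) and 0 to 1 (SeW against WR).

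The members' median changes with values as deposited were 0.55 (WR against TW), 0.10 (DSW1200 against TW), 0.93 (SeW against TW), 0.83 (SeW against DSW1200), 0.38 (SeW against WR) and -0.42 (DSW1200 against WR). With the beta-actin ratio as covariate they were -0.33 (DSW1200 against TW), 0.68 (SeW against TW), 0.98 (SeW against DSW1200), 0.48 (SeW against WR) and -0.48 (DSW1200 against WR). With median centring they were 0.055 (WR against TW), 0.026 (SeW against WR) and -0.039 (DSW1200 against WR), where the medians of all genes were -0.12, 0.17 and 0.055. Leaving out 1 array gave 0.095 to 0.42 (WR against TW), -0.043 to 0.11 (DSW1200 against TW), -0.11 to 0.16 (SeW against TW), -0.096 to 0.15 (SeW against DSW1200), -0.41 to -0.065 (SeW against WR) and -0.36 to -0.032 (DSW1200 against WR). Adding the shared probe sets, an alternative chosen after seeing the data, gave 0.24 for WR against TW.

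Single genes changed sign as follows. With values as deposited, where the median of all genes shifted as well and 14 of these 15 kept their side of it (all but Rpl26l1 in DSW1200 against WR), SeW against TW was 0.59 for Rpl26, 0.43 for Rpl41 and 0.80 for Rps27l; SeW against DSW1200 was 0.23 for Rpl13a, 0.43 for Rpl26l1 and 0.21 for Rpl41; SeW against WR was 0.071 for Rpl13a, 0.12 for Rpl21 and 0.00668 for Rpl39; DSW1200 against WR was -0.070 for Rpl18, -0.34 for Rpl26l1 and -0.098 for Rps3a; and WR against TW was 0.098 for Rpl37a, 0.35 for Rps4y2 and 0.11 for Rpsa. With the beta-actin covariate, SeW against TW was 0.66 for Rpl26, -1.05 for Rpl26l1, 0.14 for Rpl41 and 0.48 for Rps27l, SeW against DSW1200 was 0.67 for Rpl13a and 0.21 for Rpl41, SeW against WR was 0.35 for Rpl13a, 0.65 for Rpl21 and 1.48 for Rpl39, DSW1200 against WR was -0.39 for Rps3a, and DSW1200 against TW was -0.032 for Rpsa. With the mean of probe sets, Rpl3 was 0.15 in DSW1200 against WR and -0.017 in SeW against DSW1200, and Rpsa was -0.054 in DSW1200 against TW, where median centring gave -0.0060. With plain _at probe sets, Rpsa was -0.43 in DSW1200 against TW, -0.23 in DSW1200 against WR and 0.20 in SeW against DSW1200. Leaving out 1 array gave -0.33 to 0.0018 for Rpl26 and -0.75 to 2.27 for Rpl26l1 in SeW against TW, -0.36 to 2.66 for Rpl26l1 and -0.59 to 0.13 for Rpl6 in DSW1200 against TW, -0.32 to 0.44 for Rpl26l1 and -0.17 to 0.24 for Rps3a in DSW1200 against WR, -0.013 to 0.37 for Rpl37a in SeW against WR, and -0.42 to 2.60 for Rpl26l1, -0.39 to 0.12 for Rpl37a, -0.059 to 1.43 for Rpl39 and -0.34 to 0.13 for Rps4y2 in WR against TW.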
